A study of Homo sapiens with 8 samples.

Results

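The clustered protocadherin locus was followed through the loss of maintenance methylation in human embryonic stem cells. Its members were all CpGs listed in any library inside 3 intervals of human chromosome 5 in build hg19: the alpha cluster (chr5:140165000-140392000), the beta cluster (chr5:140430000-140627000) and the gamma cluster (chr5:140710000-140893000). They numbered 2180 of the 3209182 CpGs listed in the series, with 675 in alpha, 691 in beta and 814 in gamma. The cells were HUES64, an established human embryonic stem cell line, of a genotype given as DNMT1 knockout, which applied to every library including day 0. After replication, DNMT1 restores on the daughter strand the methylation pattern of the parental strand. Such cells are kept alive by DNMT1*, an exogenous copy of the enzyme that can be shut off. Methylation was read by reduced representation bisulfite sequencing (RRBS) of MspI fragments in 1 library per day over days 0 to 7 of DNMT1* withdrawal. Whether the line was 1 clone was not given in the sources used here. There were no replicates, so the tests over days describe this single course.

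Clustered protocadherins are cadherin-like adhesion proteins of the cell surface, best known in neurons, where each cell expresses a small set of them and so acquires a surface identity. Many similar first exons lie in a row, each behind its own promoter. In the alpha and gamma clusters these variable exons are spliced to shared constant exons, whereas beta genes are single exons. Promoter choice is tied to DNA methylation, and most variable promoters share a conserved sequence element. The C-type genes at the ends of the alpha and gamma rows (PCDHAC1, PCDHAC2, PCDHGC3, PCDHGC4) differ from the others in sequence and are expressed more uniformly.

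Promoter sequences were used to show which genes some of the measured CpGs belong to. RefSeq promoters of build GRCh38.p14, running from 250 bases before to 50 bases after a start, were found for 47 of 53 protocadherin genes, in 52 entries. A promoter was tied to the data only by the spacing of its CpGs, since no hg19 annotation was used. With 6 or more CpGs listed, no listed CpG that the sequence lacks, and 1 matching place in the 3 clusters, 9 entries of 7 genes were placed, none of them in the beta cluster. This rule was loosened after the data were seen, because the stricter one, with 80% of the CpGs listed, placed 0. The spacings of PCDHAC1 were found at 10 places over all autosomes and those of PCDHGC4 at 5, so these 2 are less certain. The others below were found at 1 place. PCDHAC1 and PCDHAC2 are shown as the alpha promoters, both at 0% at the start. PCDHGB5 is the most and PCDHGC4 the least methylated of the matched gamma promoters, none of which is gamma-A. The PCDHGB5 level rests on 7 of the 19 CpGs in its sequence. PCDHGB6 was added after its values were seen, because methylation changes within it. All run 5′ to 3′, and capitals mark the CpGs listed in the libraries.
PCDHAC1: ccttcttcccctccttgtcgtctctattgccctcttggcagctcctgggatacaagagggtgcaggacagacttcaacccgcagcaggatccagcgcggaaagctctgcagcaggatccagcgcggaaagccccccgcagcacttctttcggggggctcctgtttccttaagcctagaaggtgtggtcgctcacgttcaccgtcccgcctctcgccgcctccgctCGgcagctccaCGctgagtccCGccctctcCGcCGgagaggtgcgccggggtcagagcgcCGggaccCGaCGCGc
PCDHAC2: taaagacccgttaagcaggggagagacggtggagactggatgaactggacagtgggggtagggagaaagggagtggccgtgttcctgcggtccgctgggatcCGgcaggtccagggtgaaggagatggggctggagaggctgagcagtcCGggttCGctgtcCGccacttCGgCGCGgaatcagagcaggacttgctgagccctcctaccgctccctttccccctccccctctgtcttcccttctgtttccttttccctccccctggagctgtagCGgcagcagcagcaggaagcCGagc
PCDHGB5: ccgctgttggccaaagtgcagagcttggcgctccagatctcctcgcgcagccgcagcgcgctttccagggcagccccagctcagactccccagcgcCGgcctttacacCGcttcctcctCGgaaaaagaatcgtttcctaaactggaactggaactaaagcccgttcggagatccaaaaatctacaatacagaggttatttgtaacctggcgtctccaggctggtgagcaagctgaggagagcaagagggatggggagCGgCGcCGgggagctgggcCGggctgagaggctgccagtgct
PCDHGB6: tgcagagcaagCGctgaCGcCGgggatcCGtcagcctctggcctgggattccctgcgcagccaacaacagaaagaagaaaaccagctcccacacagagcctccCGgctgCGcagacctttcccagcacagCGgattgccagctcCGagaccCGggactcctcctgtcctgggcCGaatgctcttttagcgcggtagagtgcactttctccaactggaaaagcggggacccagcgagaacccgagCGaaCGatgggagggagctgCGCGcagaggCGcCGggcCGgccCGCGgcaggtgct
PCDHGC4: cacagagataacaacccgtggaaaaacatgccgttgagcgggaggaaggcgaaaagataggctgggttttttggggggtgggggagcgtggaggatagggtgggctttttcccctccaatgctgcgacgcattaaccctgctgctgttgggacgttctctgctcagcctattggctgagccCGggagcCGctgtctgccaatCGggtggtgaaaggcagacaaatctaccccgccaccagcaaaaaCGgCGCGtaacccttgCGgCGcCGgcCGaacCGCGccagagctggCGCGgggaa
The 2 C-type promoters of the alpha cluster are CpG-rich in RefSeq, with 27 and 15 CpGs. The alpha genes other than the C-type had a median of 7 CpGs per promoter, beta genes 7.5, gamma-A genes 5, gamma-B genes 13 and gamma-C entries 23, against 14 over all 35116 promoters. The 8-letter word in the most protocadherin promoters was CAGCGCCA, or TGGCGCTG on the other strand, in 14 of 52 entries and in 1.91% of all promoters. It occurred in 12 of 14 beta and 2 of 11 gamma-B entries, and in none of the alpha, gamma-A or C-type entries. Its lead was small, and words close behind it differed by family. AGCGCCAC was in 13 entries, all beta. ACAGCGGC was also in 13: 5 of 11 gamma-A, 5 of 11 gamma-B and 3 of 3 gamma-C. ACAGCGAC was in 11: 5 of 11 alpha, 5 of 11 gamma-A and 1 of 11 gamma-B. These 3 words were in 1.15, 1.63 and 0.652% of all promoters.

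Depth fell into 2 ranges. The clusters held 108514, 50150, 105167, 102554 and 94716 CpG reads on days 0, 1, 2, 6 and 7. The medians were 19 to 43 reads per CpG that had a read on that day. On days 3, 4 and 5 the clusters held 10157, 9236 and 9250 reads. The median was 4 over the 1990, 1994 and 1929 CpGs that had a read. CpGs were therefore pooled into 1-kb tiles, and a tile was used with at least 3 CpGs seen in all 8 libraries and at least 10 reads in each. This kept 144 of 213 tiles: 39 of 60 in alpha, 45 of 62 in beta and 60 of 91 in gamma. The thinnest tile had 10 reads in a library, and a percentage from such a tile is coarse. Of the tiles with 20 or more listed CpGs, called CpG-dense here, 34 of 35 were used. Listed CpGs depend on MspI sites and coverage as well as on sequence.

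At the start of the course the clusters were highly methylated, with a few unmethylated islands. On pooled days 0 and 1, by which the mean over cluster tiles had already gone from 76.7 to 73.9%, 101 of the 144 tiles (70.1%) stood at 80% or more, 30 between 20 and 80%, and 13 at 20% or less. Beta was the most uniform: 35 of its 45 tiles were at 80% or more and 2 at 20% or less. Alpha had 24, 10 and 5 tiles in the 3 classes, and gamma 42, 12 and 6. Of 203639 other autosomal tiles, 40.95% were at 80% or more. No test was made of this difference, since neighbouring tiles are not independent.

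**Figure D1:**
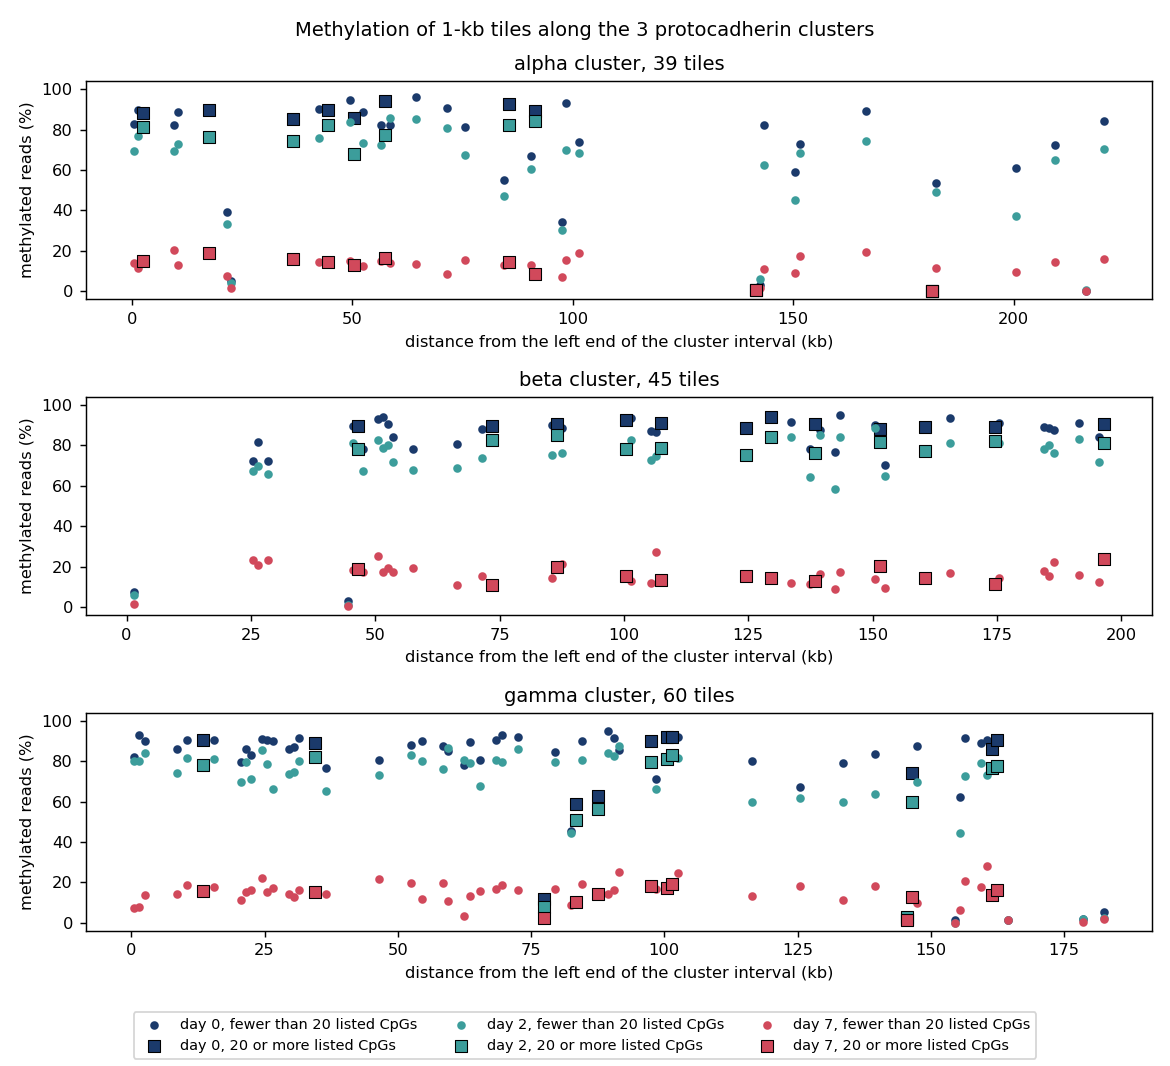
Methylated reads (%) of each used 1-kb tile against distance along its cluster (kb), on days 0, 2 and 7, with squares for tiles with 20 or more listed CpGs. The tiles that were high on day 0 stand far lower on day 7 in all 3 clusters, and the tiles near 0% on day 0 stay there, most of them in the right part of alpha and gamma.

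High methylation extended to the CpG-dense tiles, the kind of DNA that is mostly unmethylated elsewhere. Of 34 dense tiles, 27 (79.4%) were at 80% or more: 8 of 10 in alpha, 12 of 12 in beta and 7 of 12 in gamma. Among 29857 dense tiles elsewhere on the autosomes, 24.7% were at 80% or more and 61.7% at 20% or less. The DNA beside the clusters, meaning that between them and up to 250 kb outside, had 10 dense tiles, of which 1 was at 80% or more and 9 were at 20% or less. The dense tiles of the beta cluster spanned only 87.2 to 92.0% on days 0 and 1. Dense tiles stood alone in alpha and beta. Gamma held 3 pairs of adjacent ones, at 91.2% (chr5:140810001-140812000), 37.8% (chr5:140855001-140857000) and 87.6% (chr5:140871001-140873000).

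**Figure D2:**
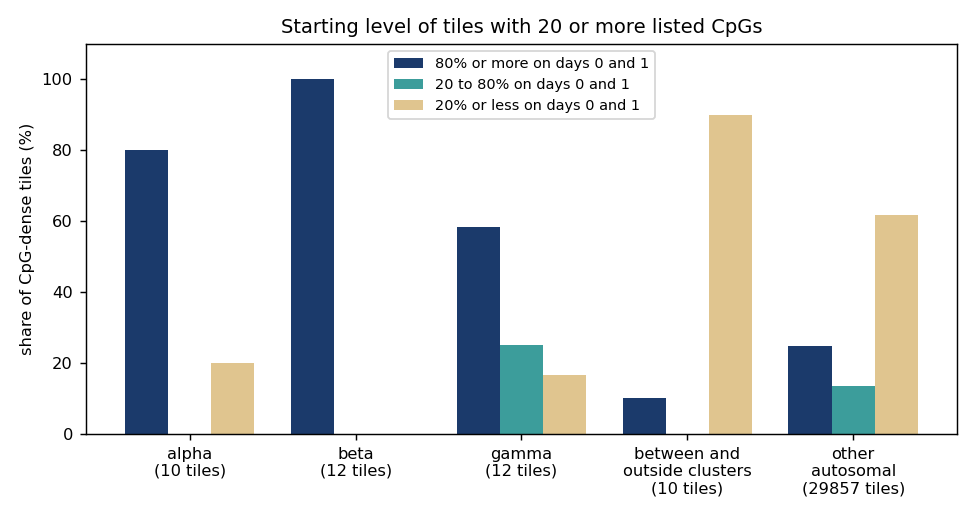
Share (%) of CpG-dense tiles that started at 80% or more, between 20 and 80%, or at 20% or less on pooled days 0 and 1, by cluster, beside the clusters, and over the other autosomes. All 12 beta tiles are in the highest class, against 24.7% of the other autosomal dense tiles.

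Several of the unmethylated tiles lay at the C-type genes. Around the matched start of PCDHAC2, 0 of 319 reads in the printed sequence were methylated on day 0, which allows up to 0.940%. Reads are summed over CpGs here and below, so 1 molecule can count at several CpGs. Such limits and intervals are therefore narrower than the number of molecules allows. In the 500 bases after the start, 0 of 1852 reads were methylated on day 0, 2 of 1836 on day 2 and 1 of 1654 on day 7. The tile that holds this stretch (chr5:140346001-140347000) was at 0.0358% on pooled days 0 and 1. Methylation rose farther in: CpGs 500 to 2000 bases after the start were at 48.8% on day 0 and 9.49% on day 7. PCDHAC1 showed the same low state where its match placed it, with 0 of 1091 reads methylated on day 0 in the 500 bases after the start, which allows up to 0.275%, and 23 of 1829 reads (1.26%) beyond. The tile that follows the matched start (chr5:140306001-140307000) holds most of these same CpGs, so it is not a separate observation. It had 54 listed CpGs, the most of any in alpha, and stood between 0.124 and 2.19% on each of the 8 days.

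In gamma the matched C-type starts were also low. CpGs of PCDHGC3 were at 1.49% of 404 reads in the 500 bases before its start and at 2.21% of 1491 reads in the 500 bases after it on day 0. From 500 to 2000 bases after the start they were at 77.7% of 2776 reads. This border splits the adjacent dense tiles: the left (chr5:140855001-140856000) started at 2.50%, while the pair together started at 37.8%. PCDHGC4 was at 0.995% of 603 reads in its printed sequence on day 0 and at 0% on day 2 and from day 6 on. From 500 to 2000 bases after its start CpGs were at 74.25% of 835 reads. Both genes thus had a low start with methylated DNA beginning within 1 kb of it.

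Gamma-B promoters differed from each other. PCDHGB5 was at 84.3% in its printed sequence on day 0 and at 14.5% on day 7. PCDHGB4, matched by 6 CpGs, was at 76.6% on day 0 and at 21.2% on day 7. PCDHGB6 has 2 matched RefSeq starts, and its level depended on which was taken. Around the upstream start, 1.05% of 952 reads were methylated on day 0. In the printed sequence, of the downstream start, 15.04% of 1150 reads were methylated on day 0. The printed sequence contains a step, with distances given here from the downstream start. The 8 CpGs more than 100 bases before the start were at 1.54% of 714 reads on day 0 (Wilson 95% interval 0.862 to 2.74%). The 9 CpGs from 10 bases before the start onward were at 49.6% of 256 reads (43.5 to 55.7%). Between them, 2 CpGs were at 19.4% of 180 reads. The rise did not continue evenly after the start. CpGs 32 to 39 bases after it, counted in the 9, had 0 methylated of 2 or 3 reads each on day 0. CpGs 94 to 112 bases after it, past the printed sequence, were at 16.7 to 18.2% of 11 or 12 reads each on day 0. They were at 0% on days 2 and 7. The 9 CpGs from 10 bases before the start onward fell to 31.0% on day 2 and to 4.13% on day 6. They were at 14.1% of 99 reads on day 7. These reads are summed over CpGs, and no single CpG among the 9 had more than 45 reads on day 0 or 19 on day 7. The tile that holds the step (chr5:140787001-140788000) started at 10.95%, and the next dense tiles (chr5:140793001-140794000 and chr5:140797001-140798000) at 58.3 and 60.6%.

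**Figure D3:**
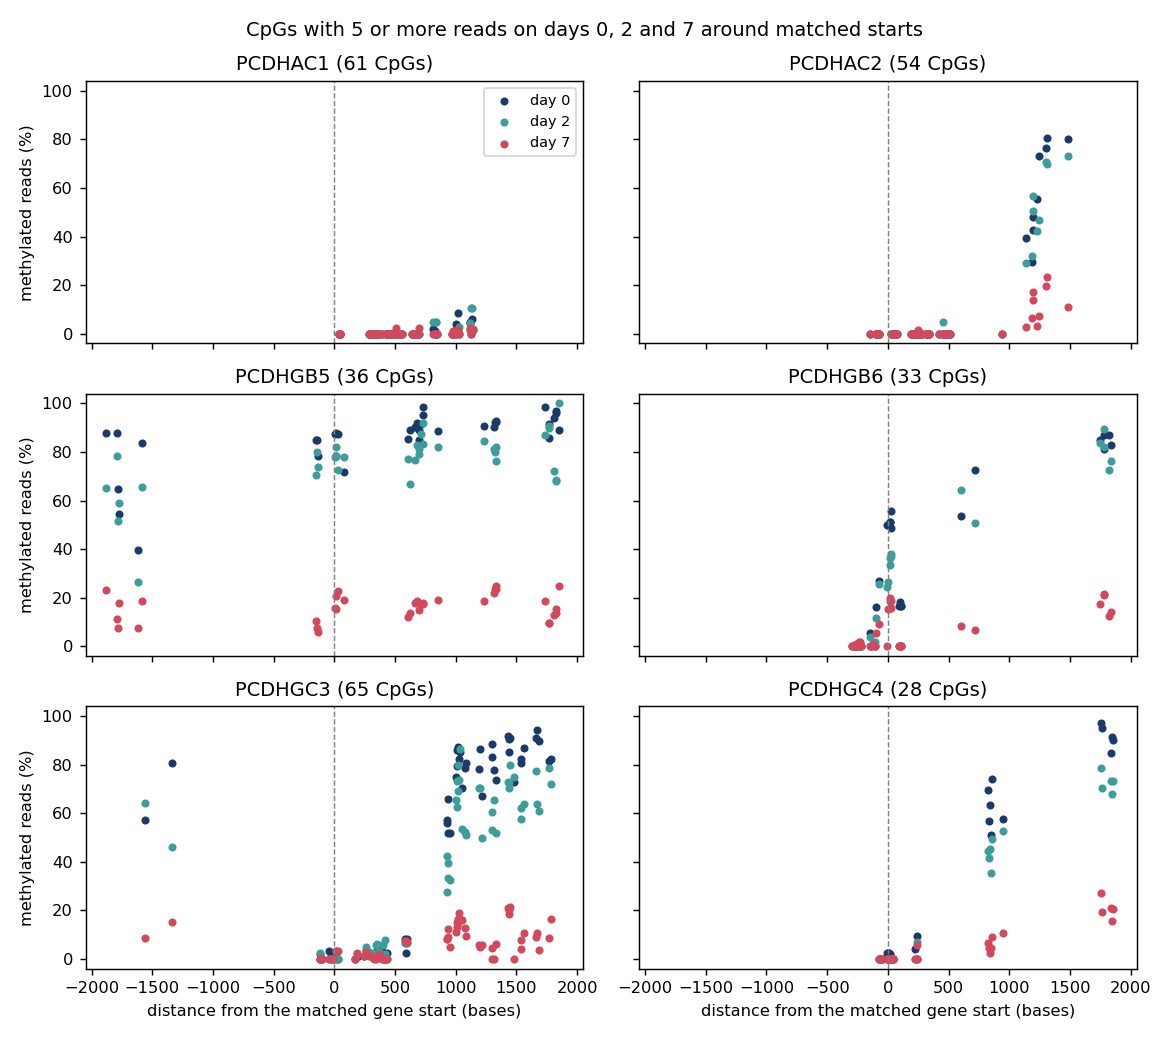
Methylated reads (%) of single CpGs with 5 or more reads on days 0, 2 and 7, against distance in bases from the matched start (dashed line) of 6 genes. PCDHAC2, PCDHGC3 and PCDHGC4 are near 0% at the start, and beyond 1000 bases PCDHGC3 and PCDHGC4 are high and PCDHAC2 mostly intermediate on day 0. PCDHGB6, at the downstream of its 2 starts, rises across the start, is lower again at thinly read CpGs 94 to 112 bases after it, and is higher farther on. PCDHGB5 is high in most CpGs.

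All 3 clusters lost most of their methylation over the 8 days. The mean over alpha tiles was 69.4, 66.6, 59.8, 43.4, 32.1, 29.1, 16.0 and 11.98% on days 0 to 7. Beta tiles averaged 83.5, 80.5, 73.4, 53.1, 38.7, 31.9, 19.9 and 15.8%. Gamma tiles averaged 76.4, 73.7, 67.1, 50.9, 38.8, 27.35, 17.9 and 14.1%. Each mean was lower on every day than on the day before. The natural log of the mean fell by 0.26 per day in all 3 clusters, with standard errors of 0.0257, 0.0216 and 0.0239, or 22.9, 22.5 and 22.9% of the remaining methylation per day (exact two-sided permutation of the 8 days, p = 4.96e-05 each, the smallest that 40320 orders can give in a two-sided test, and 0.000149 after Benjamini-Hochberg adjustment over 9 trends).

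The clusters started in the order beta, gamma, alpha, and differed in how many of their tiles were low. Among tiles at 80% or more alone, day 0 means were 88.0% in alpha, 89.7% in beta and 88.6% in gamma, and day 7 means were 14.3, 16.7 and 16.3%. The difference in log slope was -0.00509 ± 0.00820 (SE) per day between alpha and beta (exact permutation p = 0.595), -5.65e-05 ± 0.0129 between alpha and gamma (p = 0.997) and 0.00503 ± 0.00760 between beta and gamma (p = 0.54), by the same exact test. None passed. Using the same tiles on the 5 deep days only, alpha minus beta was -0.0104 (exact permutation p = 0.00833) and beta minus gamma 0.00384 (p = 0.0167). Both are small beside the slope itself.

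**Figure D4:**
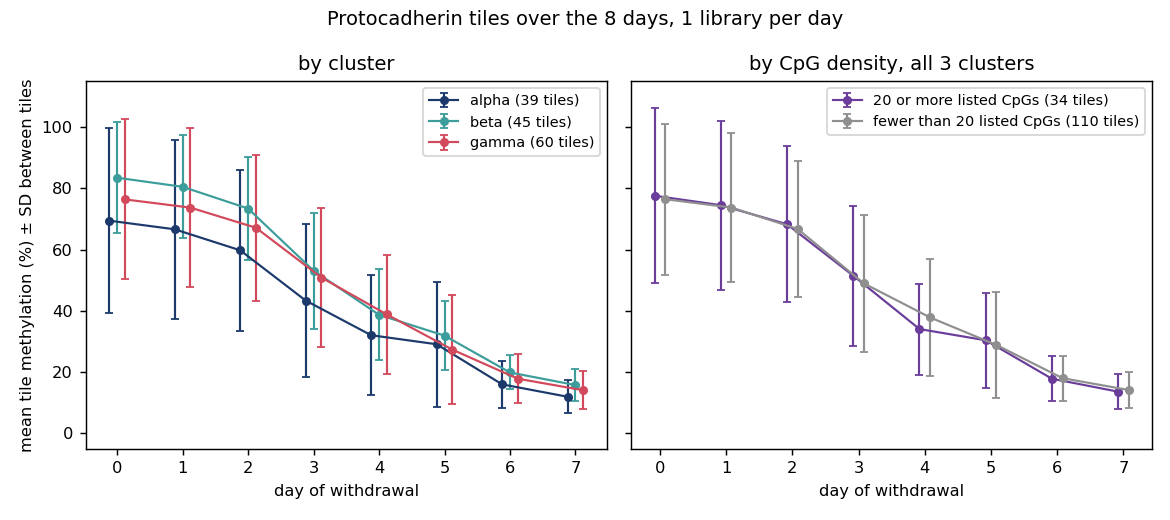
Mean tile methylation (%) on each day, with the SD between tiles, for the 3 clusters (left) and for CpG-dense and other tiles of all 3 (right). The 3 clusters start at 69.4, 83.5 and 76.4% and end at 11.98, 15.8 and 14.1%, and the 2 density classes overlap on every day.

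Dense and other tiles of the clusters did not differ in rate past the threshold over the 8 days. Dense tiles averaged 77.6% on day 0 and 13.6% on day 7, and the other 110 tiles 76.45 and 14.2%. Their log slopes differed by -0.00657 ± 0.00818 per day (SE, exact permutation p = 0.465), and by -0.00709 on the 5 deep days alone (exact permutation p = 0.0417). Within beta, where every dense tile was highly methylated, dense tiles went from 90.2 to 15.9% and the others from 81.0 to 15.8%.

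Tile by tile, losses covered nearly all DNA that had methylation to lose. A quasi-binomial fit of reads on day over all 203871 autosomal tiles, with Benjamini-Hochberg adjustment and limma's moderation of the spread, called a fall in 133 of the 144 cluster tiles, against a background of 87.2% of all autosomal tiles, and a rise in 0, where the background was 0%. The calls were 34 of 39 in alpha, 44 of 45 in beta and 55 of 60 in gamma. All 101 tiles at 80% or more and all 30 tiles between 20 and 80% fell, and the background in these classes was 100%. Only 2 cluster tiles had a rising slope, with 0 at an unadjusted p under 0.05. Other tools gave 138 (Fisher's exact test between days 0 and 7, which compares 2 single libraries) or 135 (limma on arcsine levels) falling tiles and 0 rising ones. Of all 203871 autosomal tiles, Fisher's exact test called 183121 falling and 141 rising. For limma on arcsine levels these numbers were 178956 and 107. The median fitted change of the 101 highest tiles was -76.8 points from day 0 to day 7, and -72.0 points over all autosomal tiles of that class.

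The 13 tiles at 20% or less had little to lose, and 2 of them passed, against a background of 14.7%. One was the tile with the PCDHGB6 step, which went from 11.55% on day 0 to 2.26% on day 7 (limma-moderated adjusted p = 0.00184). The other was a beta tile near the left end of the cluster (chr5:140431001-140432000), from 7.28 to 1.41% (adjusted p = 0.0144 in the same limma-moderated fit). The mean of the 13 tiles was 3.26% on day 0 and 0.961% on day 7. The tiles with PCDHAC2 and next to PCDHAC1 did not pass, nor did those with PCDHGC3 (2.06% on day 0, 1.15% on day 7) and PCDHGC4 (1.22% on day 0, 0% of 409 reads on day 7). A tile farther right in gamma (chr5:140874001-140875000) was at 1.60% on day 0 and 1.24% on day 7.

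What was left on days 6 and 7 differed between tiles. Among tiles that began at 50% or more, the highest pooled late levels were 28.2% in gamma (chr5:140870001-140871000, Wilson 95% interval 24.8 to 31.8%), 27.7% in beta (chr5:140480001-140481000, 25.7 to 29.8%) and 26.05% in alpha (chr5:140223001-140224000, 21.1 to 31.7%). The beta tile went through 92.95, 86.7, 82.6, 68.3, 55.1, 38.5, 29.8 and 25.1% on days 0 to 7. It was thus lower on every day than on the day before. The alpha tile rests on 3 CpGs, and its late level on day 6: it was at 32.9% on day 6 and at 13.8% on day 7, when the mean of alpha tiles at 80% or more was 14.3%. It also moved from 42.9% on day 4 to 71.4% on day 5 with 14 reads on each.

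The lowest late levels were 8.78% in gamma (chr5:140857001-140858000, from 85.4% at the start), 11.01% in alpha (chr5:140365001-140366000, from 53.1%) and 11.45% in beta (chr5:140572001-140573000, from 76.6%). These alpha and beta tiles rest on 3 CpGs each. The gamma tile lies next to the pair that holds the PCDHGC3 border, and is separated from the unmethylated tile of PCDHGC3 by a tile that started at 72.5% (chr5:140856001-140857000). Its 8 daily values were 87.55, 78.8, 69.6, 41.8, 34.45, 13.6, 7.99 and 9.63%. A further gamma tile (chr5:140865001-140866000), 8.995% late, adjoins the tile of PCDHGC4 and began at 58.2%. In alpha, a tile at 12.2% late (chr5:140347001-140348000) adjoins that of PCDHAC2 and began at 51.0%. A low late level did not always go with a greater relative loss: the alpha tile kept 23.85% of its start, above the alpha median of 21.0%, while these 2 gamma tiles kept 10.3 and 15.45%, below the gamma median of 21.2%. The tile with the most listed CpGs fell from 89.75 to 17.1% in beta (chr5:140568001-140569000, 33 CpGs) and from 87.0 to 15.3% in gamma (chr5:140871001-140872000, 52 CpGs).

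Beside other highly methylated DNA, the cluster tiles had kept more on day 2 and less on day 7. Cluster tiles at 80% or more averaged 88.8, 78.2, 43.3 and 16.0% on days 0, 2, 4 and 7. The 83382 other autosomal tiles of that class averaged 86.7, 72.3, 36.9 and 18.5% on the same days. By day 2, cluster tiles had thus kept 88.0% of where they began and the others 83.5%, and by day 7 the shares kept were 18.0 and 21.3%. Of the 101 tiles, 85 kept more on day 2 than the median of the others (83.8%), 74 kept less on days 6 and 7 (median of the others 23.3%), and 61 did both. The share of the other tiles that did both was not determined, so the count of 61 has no background to be read against. The means stood in ratios of 1.02, 1.17, 0.953 and 0.864 on days 0, 4, 6 and 7. Log slopes over all 8 days differed by -0.0186 ± 0.0148 (SE, exact permutation p = 0.26, adjusted p = 0.585), which did not pass.

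Against the tiles most like them the contrast was smaller on day 2. Dense cluster tiles kept 88.3% of their mean on day 2 and dense tiles elsewhere 86.15%, and on day 7 the shares were 17.4 and 20.3%. Of the 27 dense cluster tiles at 80% or more, 18 kept more on day 2 than the median of dense tiles elsewhere, 21 kept less on days 6 and 7, and 12 did both. The count of 12 likewise has no background. The crossing of the ratio from above 1 to below 1 was noticed in these same means, so no test of its shape is given as support, and days 3 to 5 are shallow.

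**Figure D5:**
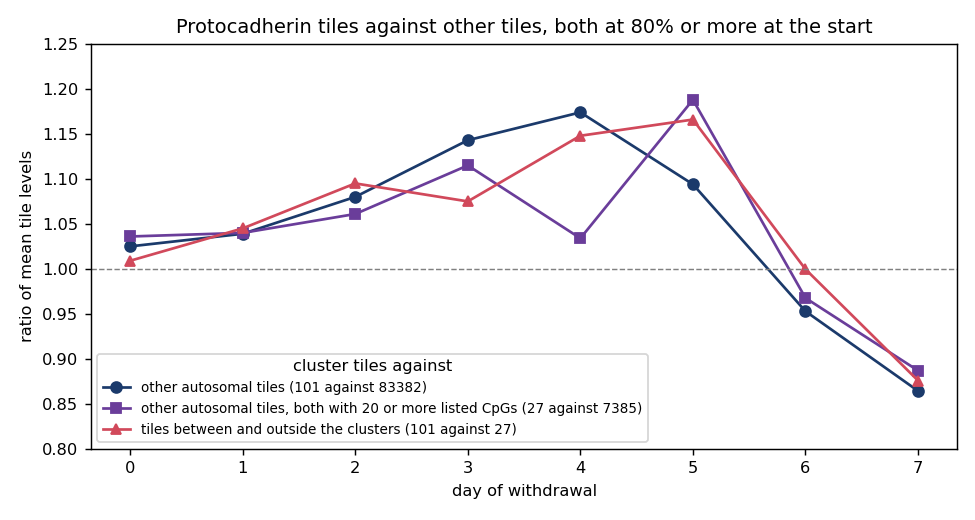
Ratio of the mean level of cluster tiles to that of other tiles, both at 80% or more on days 0 and 1, by day of withdrawal, against all other autosomal tiles, CpG-dense tiles only, and tiles beside the clusters. Each line is above 1 from day 0 to day 5. On day 6 the ratio is below 1 against both sets of other autosomal tiles and level, at 0.9996, against tiles beside the clusters. On day 7 all 3 are below 1, to 0.864 against the other autosomal tiles.

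Single CpGs were compared where all deep libraries covered them. Of 1637 cluster CpGs with 10 or more reads in each of the 5 deep libraries, 1123 (68.6%) were at 80% or more on pooled days 0 and 1: 58.1% of those in alpha, 83.4% in beta and 65.3% in gamma, against 41.6% of other autosomal CpGs. All 1123 were lower on day 7 than on day 0. The share of such CpGs elsewhere that were lower was not determined, so this count has no background. The median of the 1123 on pooled days 6 and 7 was 18.5%, against 19.15% for such CpGs elsewhere. CpGs at 30% or more on those days made up 4.99% (56 CpGs), against 11.65% elsewhere. At the low end the shares were close, with 6.23% of cluster CpGs and 6.28% of others at 10% or less. Of the 116 alpha CpGs at 20% or less on pooled days 0 and 1, 69 had no methylated read in any deep library. In beta this held for 1 of 15 and in gamma for 12 of 80. The share elsewhere was not determined.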

How the data were processed

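RRBS libraries of 8 days were read from per-CpG files. Per the labels' protocols, RRBS followed a published method with changes for low cell input, and the submitters' processing notes name hg19. The aligner, caller and duplicate handling are not named in those sources. The authors deposited methylated and total read counts per CpG, and a score that equals 1000 times the methylated share, which was not used. Members and lists were chosen with earlier results of these data known.

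Counts were joined by position (counted from 1) and pooled in 1000-base tiles of CpGs with a read in all 8 libraries (3 or more CpGs, 10 or more reads per library). A cluster level is the unweighted mean of its tiles. Trends are least-squares slopes of natural logs on day, with exact two-sided permutation of days and Benjamini-Hochberg adjustment over 9. Tiles were tested by quasi-binomial regression with depth weights (spread 0.0139), limma 3.58.1 squeezeVar, a dispersion of at least 1 and an F test at an adjusted p of 0.05 (R 4.3.3, Python 3.11.15). Without depth weights, 22.0% of calls on simulated reads of 5000 tiles (200 changed) were false, so weights were added. With them, 98%, 84%, 52% and 96% of changes of -0.4, -0.2, -0.1 and 0.2 log odds per day were recovered, with 3.51% false calls. The simulated spread was 0.004, below the 0.0139 of the data, and far fewer tiles changed than in the data. These rates therefore need not hold for the data. Simulated slopes of -0.3, -0.25 and -0.2, with counting error alone and no spread between libraries, came back as -0.299, -0.254 and -0.201. Wilson 95% intervals and upper limits for a share of 0 (3 reads over the total) reflect counting error alone. They treat all counts as independent. Counts are summed over CpGs, so a read that covers several CpGs counts at each, and PCR copies of a molecule may be counted more than once. Both make the intervals and limits too narrow. The tiles named are, per cluster, those with the 3 highest and 3 lowest late levels among tiles starting at 50% or more, the most listed CpGs, the 2 lowest starts and the longest run of dense tiles, of which the text gives a selection. Other tiles, and those next to matched starts, were named after their values were seen. Curvature, the 5 deep days on the same tiles, the test without depth weights and the loosened promoter rule were added after seeing the data. Alternatives covered tile size, read and CpG minimums, pooling, a coverage limit, density limits, other tests and each day left out.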

Additional observations from a re-analysis of the deposited data

How the results depend on the processing

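No paired analysis was possible because each day has 1 library. The declines kept their direction and passed under all alternatives run: with each day left out they were -0.292 to -0.238 (alpha), -0.286 to -0.242 (beta) and -0.294 to -0.246 (gamma) per day. Of the differences between slopes, dense minus other and clusters minus other autosomal tiles stayed negative under all alternatives run, and the other 4 changed sign under some. Alpha minus beta was -0.00592 over CpGs of the 5 deep days, -0.0104 on those days with the same tiles, 0.00112 over CpGs with 5 reads in all libraries, 0.00118 with pooled reads, 1.87 in points per day and -0.00988 to 0.00403 with each day left out (exact permutation p = 0.00794 without day 5). Alpha minus gamma was 0.00237 over those CpGs, 0.00307 with pooled reads, 1.05 in points and -0.00751 to 0.00754 with each day left out. Beta minus gamma was -0.000247 with 1 CpG per tile, -0.00252 with 2-kb tiles, -0.82 in points and 0.00384 on the deep days. The differences in points per day had unadjusted exact permutation p = 0.00124, 0.0453 and 0.0439 for these 3 pairs, where the log slopes did not pass. Sets that start at different levels lose unequal points per day even at equal log slopes. No difference in points given here therefore shows an unequal rate. Dense minus other was -0.00709 on the deep days (exact permutation p = 0.0417), and clusters minus the DNA beside them -2.77 in points (exact permutation p = 0.000248, against 0.596 on the log scale) and -0.0133 to 0.00433 with each day left out. Clusters minus other autosomal tiles stayed uncalled, at -0.0302 to -0.00115 with each day left out. Curvature of the log ratio, chosen after the ratio was seen and given no weight, was -0.0168 over 8 days; on the deep days it was -0.0101 against autosomal tiles and -0.0131 against the DNA beside the clusters, where leaving out each day gave -0.0199 to -0.0111. The causes were not tested.

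Falling tiles numbered 94 with 20 reads per tile and library, where fewer tiles were tested. Alpha had 22 of 27 tested tiles and gamma 35 of 40, and all tested beta tiles fell. Under this setting 98833 of 122364 autosomal tiles fell. Without depth weights, 139 of 144 cluster tiles fell, against 184114 of 203871 autosomal tiles, where 281 others rose. With each day left out, 133 of 144 cluster tiles fell, against 176638 to 177924 of 203871 autosomal tiles. Of 26 named tiles, 24 kept their late level within its interval when limited to well-read CpGs, and chr5:140455001-140456000 moved from 24.1 to 19.4% and chr5:140871001-140872000 from 15.3 to 16.8%. Days 3 to 5 limit the precision: a median tile held 46 reads on day 5 against 494.5 on day 0.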

Other observations

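A few CpGs kept far more or far less than the rest of the clusters. These were chosen by their late level, so they are values with no test. A gamma CpG at chr5 position 140871636 was at 90.3% on pooled days 0 and 1 and at 53.2% of 47 reads on pooled days 6 and 7 (Wilson 95% interval 39.2 to 66.7%). It lies in the gamma tile with the most listed CpGs, whose late level was 15.3%, and another CpG of that tile, at position 140871502, was at 4.76% of 63 late reads after 88.9% at the start. A beta CpG at position 140480850 was at 48.8% of 84 late reads (38.4 to 59.3%) and lies in the beta tile with the highest late level. A gamma CpG at position 140884972 was at 44.8% of 105 late reads. The lowest late level was that of the gamma CpG at position 140730262, with 3.39% of 59 reads after 94.4% at the start. Of the 1123 highly methylated CpGs, 2 were still at 50% or more on day 7. The share of such CpGs elsewhere was not determined.

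The 30 cluster tiles between 20 and 80% at the start went from 67.7% on day 0 to 13.3% on day 7, and kept 85.3% of their day 0 level on day 2. The DNA beside the clusters averaged 56.9% over 88 tiles on day 0 and 10.9% on day 7.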
